A study of Mus musculus with 12 samples.

Results

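Expression of 30 genes of cholesterol and fatty acid synthesis was examined in the somatosensory cortex of postnatal day 7 (P7) mice 8 h after ethanol. The genes were taken by name as enzymes and regulators of these pathways, with no measured value in the rule but with earlier results of these data known. By symbol, all 30 were found among 24452 in the files. All 30 also passed the filter on low counts that left 14739 genes for testing. They were read as 6 mevalonate-pathway genes, 3 genes from squalene to lanosterol, 8 genes from lanosterol to cholesterol, 5 regulators, 7 genes of fatty acid and glycerolipid synthesis and 1 sterol carrier.

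Cholesterol is built from acetyl-CoA through mevalonate, the isoprenoid farnesyl diphosphate, squalene and lanosterol, and fatty acids are built from the same acetyl-CoA pool by acetyl-CoA carboxylase and fatty acid synthase. Transcription of most of these enzymes is driven by the sterol regulatory element binding proteins (SREBPs), which the escort protein SCAP carries out of the endoplasmic reticulum when sterols are low and which the INSIG proteins hold there when sterols are high. The brain makes nearly all of its own cholesterol, and demand is high in early postnatal life, when neurites, synapses and glial membranes grow.

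RNA from 12 male C57BL/6 pups was sequenced as stranded libraries, 3 from each of 4 groups: WT saline, WT ethanol, KO saline and KO ethanol. Pups of the ethanol groups had received 2 intraperitoneal injections of 2.5 g/kg ethanol at P7, and those of the saline groups had received saline. KO mice carried the Trp53 disruption in the germ line, so the disrupted gene was present in every cell type and throughout development, and they came from crosses of heterozygous carriers. Cortex had been collected by laser microdissection in some animals and by hole punch in others, and neither method could be assigned to a library. The sources name no litters, so p-values here measure the spread between libraries. In such bulk tissue, fewer cells of a type and less RNA per cell cannot be told apart.

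Total counts per library ran from 719735 to 17066392, and the 2 shallowest libraries were WT saline replicate 1 (1953154) and KO ethanol replicate 1. Trp53 was used to check the genotype labels: the share of its counts assigned to transcript NM_001127233 was 7.0 to 23.1% in WT libraries and 48.3 to 70.6% in 5 of the 6 KO libraries. In KO ethanol replicate 1 the share was 7.0%, from 14 counts (exact 95% binomial interval 0.2 to 33.9%, counting error only). WT saline replicates 1 and 2 and WT ethanol replicate 3 had the same 7.0%, from 51, 20 and 78 counts. Deposited counts are estimates divided between transcripts, which the interval leaves out, so this share does not settle the label. The library is therefore called the library labelled KO ethanol replicate 1, and comparisons that use it are also given without it. Cortical excitatory neuron markers were present in every library, with a summed level of 1042 to 1784 CPM (TMM-normalised counts scaled to library size). Hemoglobin and other erythroid markers (5 genes) summed to 337 to 1319 CPM in the 3 WT saline libraries and to 766 CPM in the library labelled KO ethanol replicate 1, against 29.1 to 145 CPM in the other 8. Choroid plexus markers summed to 4999 CPM in WT ethanol replicate 1, 2252 CPM in KO saline replicate 1 and 2209 CPM in KO ethanol replicate 3, and thalamus markers to 532 CPM in WT ethanol replicate 1 against 3.3 to 34.5 CPM elsewhere.

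Promoter sequence was available for 24 of the 30 genes in RefSeq (build GRCm38.p6), from 250 bases before to 50 bases after the annotated start, and Fdps, Fdft1, Sqle, Scd1, Scd2 and Stard4 had no entry. The CCAAT box, read as CCAAT on either strand (ATTGG in reverse), is bound by the factor NF-Y, a known partner of the SREBPs. A gene was counted when any of its promoters had a match. The CCAAT box occurred in 20 of the 24 genes, and in 41.1% of 27025 mouse genes with promoters of the same length. The letters TCACNCCAC of a sterol regulatory element, on either strand, occurred only in Hmgcs1 among the 24, and in 1.44% of the 27025 genes. The E-box CACGTG occurred in 5 of the 24 and in 8.09% of the 27025 genes. The windows below are shown for Hmgcs1, which carries both of the first 2 motifs, for Idi1, Cyp51 and Hsd17b7, which were lower after ethanol in KO mice, and for Nsdhl, Ebp and Tm7sf2, which were lower after ethanol in WT mice, each at an unadjusted p under 0.05. Each is written 5′ to 3′ on the strand of the gene, it lies upstream of the start, and capitals mark the CCAAT box in either direction and, in Hmgcs1, the sterol regulatory element.
Hmgcs1 (chr13:119690104-119690320, plus strand): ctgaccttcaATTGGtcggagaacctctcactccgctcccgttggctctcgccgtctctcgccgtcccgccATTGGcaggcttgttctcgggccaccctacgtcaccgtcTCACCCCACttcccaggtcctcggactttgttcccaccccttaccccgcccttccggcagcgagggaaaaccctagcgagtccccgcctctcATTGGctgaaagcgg
Idi1 (chr13:8885551-8885605, plus strand): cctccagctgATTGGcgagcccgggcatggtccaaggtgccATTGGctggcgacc
Cyp51 (chr5:4104712-4104736, minus strand): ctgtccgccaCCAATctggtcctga
Hsd17b7 (chr1:169969206-169969380, minus strand): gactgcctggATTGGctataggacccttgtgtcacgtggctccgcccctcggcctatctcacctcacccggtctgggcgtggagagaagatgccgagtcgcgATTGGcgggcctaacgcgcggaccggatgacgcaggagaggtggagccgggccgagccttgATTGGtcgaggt
Nsdhl (chrX:72918402-72918515, plus strand): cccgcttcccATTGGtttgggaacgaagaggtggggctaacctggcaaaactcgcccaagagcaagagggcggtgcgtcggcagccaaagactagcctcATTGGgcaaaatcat
Ebp (chrX:8193553-8193692, minus strand): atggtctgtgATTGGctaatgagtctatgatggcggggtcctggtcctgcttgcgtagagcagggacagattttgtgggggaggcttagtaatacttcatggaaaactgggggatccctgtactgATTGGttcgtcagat
Tm7sf2 (chr19:6067883-6067907, minus strand): cccagcgctgATTGGctactgtgct
In Hmgcs1 the TCACNCCAC match lies between 2 of its 3 CCAAT boxes. The matches describe the letters in these windows, and binding was not measured.

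Levels of the genes relative to each other were compared on the deposited RPKM scale, which is per length. Over the 12 libraries the highest mean levels were those of Hmgcs1, which makes HMG-CoA, at 196 RPKM, and of Scd2, the main stearoyl-CoA desaturase of developing brain, at 176 RPKM. Fdps, farnesyl diphosphate synthase, followed at 112 RPKM, then the methylsterol monooxygenase Msmo1 at 69.3 RPKM and squalene epoxidase Sqle at 57.6 RPKM. At the other end stood Stard4, a soluble sterol carrier, at 4.50 RPKM, the sterol ketoreductase Hsd17b7 at 4.17 RPKM and the phosphatidate phosphatase Lpin1 at 2.10 RPKM. The mevalonate genes spanned 20.9 to 196 RPKM, and none of the regulators exceeded 28.3 RPKM. Together the 30 genes took 0.293 to 0.547% of the counts of a library.

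**Figure D1:**
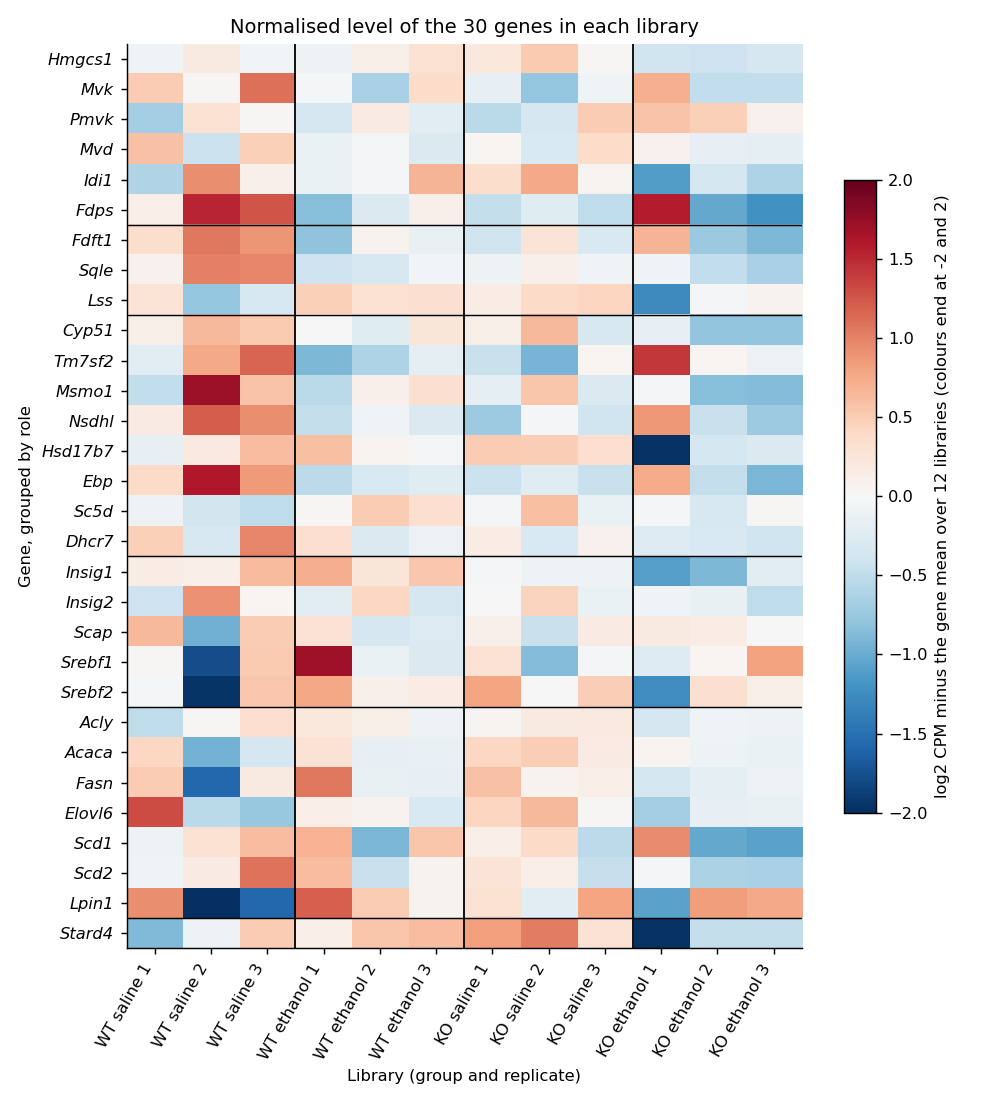
Level of each of the 30 genes (vertical axis, grouped by role) in each of the 12 libraries (horizontal axis), as log2 CPM minus the mean of that gene. KO ethanol replicates 2 and 3 are blue for most genes, while Fdps, Fdft1, Nsdhl and Ebp are red in the 3 WT saline libraries and in KO ethanol replicate 1.

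The main effect of Treatment asked how ethanol moved the genes across both genotypes. The fitted log2 fold change was below 0 for 25 of the 30 genes, with a median of -0.29 against 0.015 over all genes tested. Below 0 were 5 of the 6 mevalonate genes, 2 of the 3 from squalene to lanosterol, 7 of the 8 from lanosterol to cholesterol, 4 of the 5 regulators, 6 of the 7 fatty acid genes and Stard4. In the edgeR quasi-likelihood test 2 genes, Sqle and Cyp51, were lower at an unadjusted p under 0.05, and none was higher. Among all genes 7.09% passed, 4.62% on the higher and 2.47% on the lower side. None passed an adjusted p of 0.30 by edgeR, where 0.00678% of all genes did. None passed an adjusted p of 0.05 by edgeR, DESeq2 or limma on log2(RPKM + 1). At an unadjusted p under 0.05 these had 2, 2 and 3 genes, where 7.09, 8.51 and 4.74% of all genes passed. In CPM none had saline and ethanol libraries that did not overlap (0.0950% of all genes did so on the lower side). On the deposited RPKM 1 gene, Sqle, was separate on the lower side (0.129% of all genes).

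Sqle encodes the enzyme that oxidises squalene, a rate-limiting step late in the pathway. Its level was 191, 359 and 351 CPM in WT saline and 134, 144 and 173 CPM in WT ethanol libraries. In KO mice it was 167, 192 and 171 CPM under saline and 169, 128 and 114 CPM after ethanol. Every WT ethanol library was thus below every WT saline library, whereas the KO groups overlapped through the library labelled KO ethanol replicate 1. On the deposited RPKM all ethanol libraries (42.5 to 52.7 RPKM) were below all saline libraries (59.6 to 83.3 RPKM), in both genotypes. The Treatment effect was -0.69 ± 0.24 (log2, SE; edgeR adjusted p = 0.642), and it had an unadjusted p under 0.05 in all 11 alternative analyses and in all 12 fits that left out 1 library.

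Cyp51, the lanosterol demethylase, stood at 156, 225 and 208 CPM in WT saline and at 145, 122 and 171 CPM in WT ethanol libraries. The KO values were 156, 225 and 115 CPM under saline and 129, 83.0 and 83.6 CPM after ethanol. Groups overlapped in both genotypes. The Treatment effect of -0.60 ± 0.25 (edgeR adjusted p = 0.694) kept an unadjusted p under 0.05 in 5 of the 12 fits that left out 1 library. It was also lost without library scaling factors and after removal of length and GC trends.

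Msmo1 was measured at 101, 459.5 and 209 CPM in WT saline and 97.4, 152 and 176 CPM in WT ethanol libraries. In KO mice it was 124, 208 and 116 CPM under saline and 137, 78.1 and 77.4 CPM after ethanol. The highest library was more than the sum of the other 2 in WT saline, and the groups overlapped. Its Treatment effect was -0.75 ± 0.35 (edgeR adjusted p = 0.694).

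Without the library labelled KO ethanol replicate 1, 7 genes were lower at an unadjusted p under 0.05 for Treatment: Sqle and Cyp51, and in addition Ebp, Fdft1, Fdps, Msmo1 and Nsdhl. Under that condition 6.34% of all genes passed on the lower side. With WT saline replicate 1 left out as well, the other shallow library, the number was 14 of 30 against 30.6% of all genes, 13 of them lower. In that analysis 8 genes passed an adjusted p of 0.05 (8.22% of all genes did): Fdps, Sqle, Ebp, Fdft1, Msmo1, Nsdhl and Cyp51 were lower and Lpin1 was higher.

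**Figure D2:**
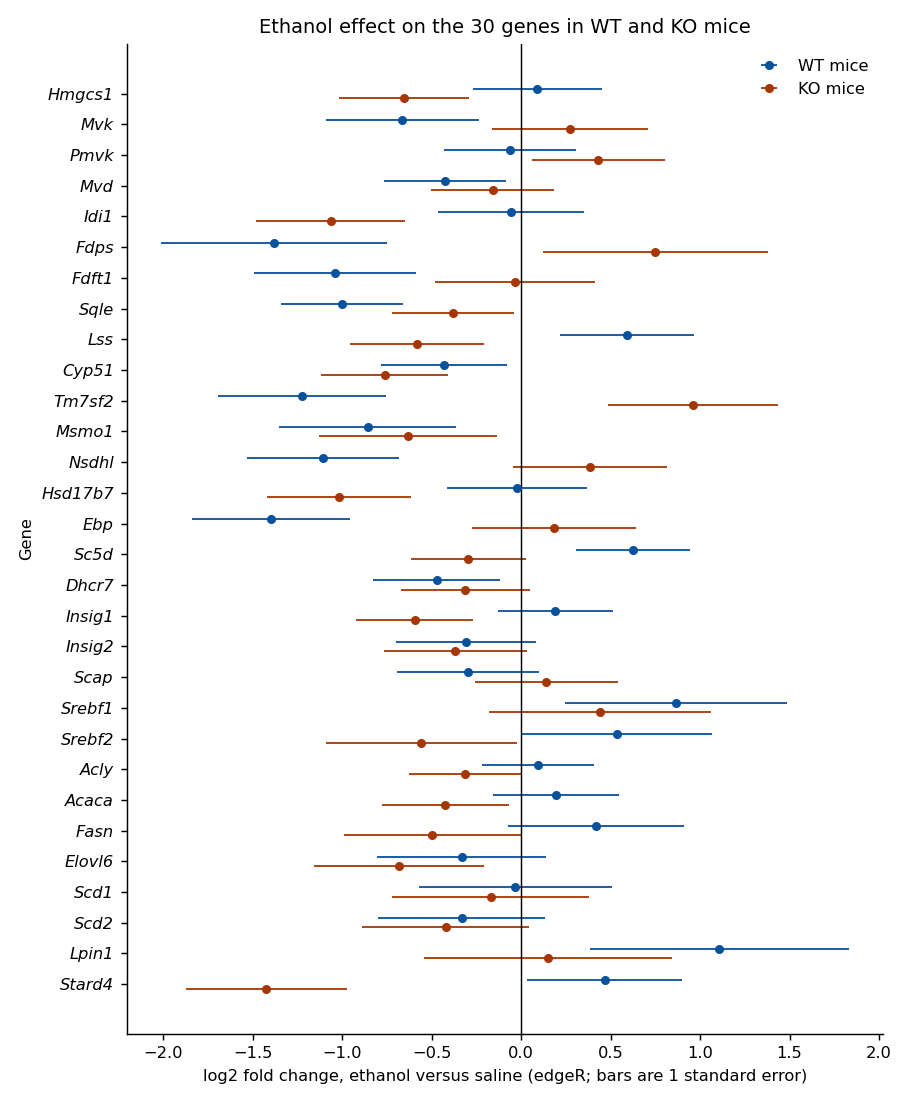
Fitted log2 fold change of ethanol versus saline (horizontal axis) for each gene (vertical axis) in WT and in KO mice, with bars of 1 standard error. Fdps, Tm7sf2, Nsdhl and Ebp lie below 0 in WT and above 0 in KO mice, while Stard4, Hsd17b7 and Idi1 lie furthest below 0 in KO mice.

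In WT mice, ethanol was compared with saline to see which genes responded with p53 present. At an unadjusted p under 0.05, 6 genes were lower and none was higher, and all 6 were enzymes that make farnesyl diphosphate or act after it: Fdps, Fdft1, Sqle, Tm7sf2, Nsdhl and Ebp. Among all genes 18.3% passed, 8.36% on the lower and 9.99% on the higher side. All 6 met the study's false discovery rate of 0.30, as did 22.5% of all genes, and none passed an adjusted p of 0.05 by edgeR (lowest 0.196), where 0.0746% of all genes did. The median over the 30 genes was -0.18 against 0.059 over all genes, and it depended on scaling: without library scaling factors it was 0.35 (0.49 over all genes), and on the deposited RPKM it was -0.004, -0.008 or 0.035. The direction of the calls at an unadjusted p under 0.05 also depended on scaling. Without library scaling factors Ebp was lower and Sc5d higher (20.3% of all genes passed). In limma on log2(RPKM + 1), Ebp was lower and Hmgcs1 and Sc5d were higher (11.7%). A 2-way linear model on RPKM had Ebp and Sqle lower and Hmgcs1 and Sc5d higher (10.3%).

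Ebp, the sterol isomerase, was measured at 22.1, 51.8 and 30.6 CPM in WT saline and at 11.8, 13.7 and 14.4 CPM in WT ethanol libraries. The lowest saline value exceeded the highest ethanol value. Its log2 fold change of -1.40 ± 0.44 (edgeR adjusted p = 0.196) had an unadjusted p under 0.05 in all 12 alternative analyses and in each of the 12 fits without 1 library.

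Fdps, which makes the farnesyl diphosphate that feeds both sterols and protein prenylation, stood at 169, 446 and 370.2 CPM in WT saline and at 86.0, 127 and 166 CPM in WT ethanol libraries. These groups did not overlap, but the gap between 166 and 169 CPM was small. The log2 fold change was -1.38 ± 0.63 (edgeR adjusted p = 0.263), and 6 of 12 alternatives and 5 of 12 fits without 1 library kept an unadjusted p under 0.05.

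Fdft1, squalene synthase, was at 253, 413 and 369 CPM under saline and at 114, 209.6 and 180.1 CPM after ethanol in WT mice, with no overlap (log2 fold change -1.04 ± 0.45, edgeR adjusted p = 0.245). Nsdhl, a sterol dehydrogenase, was at 76.6, 157 and 129.5 CPM under saline and at 48.8, 64.5 and 55.8 CPM after ethanol, also without overlap (-1.11 ± 0.43, edgeR adjusted p = 0.218). Tm7sf2, a sterol reductase, was at 38.0, 74.2 and 98.0 CPM under saline and at 23.5, 28.8 and 38.3 CPM after ethanol (-1.22 ± 0.47, edgeR adjusted p = 0.218). For Tm7sf2 the highest ethanol library was just above the lowest saline library. Sqle had a log2 fold change of -1.001 ± 0.34 in WT mice (edgeR adjusted p = 0.208). An unadjusted p under 0.05 was kept in 7 of 12 alternatives and 8 of 12 fits without 1 library for Fdft1, in 8 and 10 for Nsdhl and for Tm7sf2, and in 9 and 12 for Sqle.

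Other sterol enzymes had separate ranges in the opposite direction in WT mice. Lss, which closes squalene epoxide into lanosterol, ran from 28.1 to 58.1 CPM under saline and from 59.5 to 67.4 CPM after ethanol. Sc5d, a sterol desaturase, ran from 34.8 to 46.3 CPM and from 50.7 to 70.3 CPM. Both pairs of ranges are separate on the higher side, as for 11.3% of all genes, and 5 of the 30 genes were separate on the lower side, as for 8.30% of all genes. Mvk, Pmvk and Mvd, the kinases and decarboxylase of the mevalonate route, and Dhcr7, the last reductase, did not pass at an unadjusted p of 0.05. Together these 4 ranged from 24.8 to 94.9 CPM over the WT libraries.

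Several library properties moved with these WT values. Transcripts under 2500 bases took 46.4 to 69.5% of the counts in WT saline and 36.0 to 44.1% in WT ethanol libraries. The 9 genes with a transcript under 2500 bases were all below 0 (median -0.86), whereas the 21 longer ones had a median of 0.089. Spearman's rho between transcript length and log2 fold change was 0.625 over the 30 genes and 0.476 over 14677 genes with a known length, all read from the same libraries. After the length and GC trends were removed, 8 genes were lower at an unadjusted p under 0.05 (9.91% of all genes): Ebp, Fdft1, Nsdhl, Sqle and Tm7sf2 remained, Dhcr7, Elovl6 and Scap were added, and Fdps was lost. The 5 erythroid markers also differed in the same direction, and Fdps, Fdft1, Nsdhl and Ebp were higher in each of the 3 WT saline libraries and the library labelled KO ethanol replicate 1 than in any of the other 8. Inhibitory neuron markers (5 genes) were separate in the opposite direction, at 147.5 to 216.5 CPM in WT saline and 351 to 423.5 CPM in WT ethanol libraries, with Gad1 and Gad2 higher at an unadjusted p under 0.05. Striatum markers summed to 97.7 to 150.1 CPM in WT saline and to 52.9, 758 and 317 CPM in WT ethanol libraries. The part of transcript length, of blood or of these other cells and regions in the results was not tested.

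**Figure D3:**
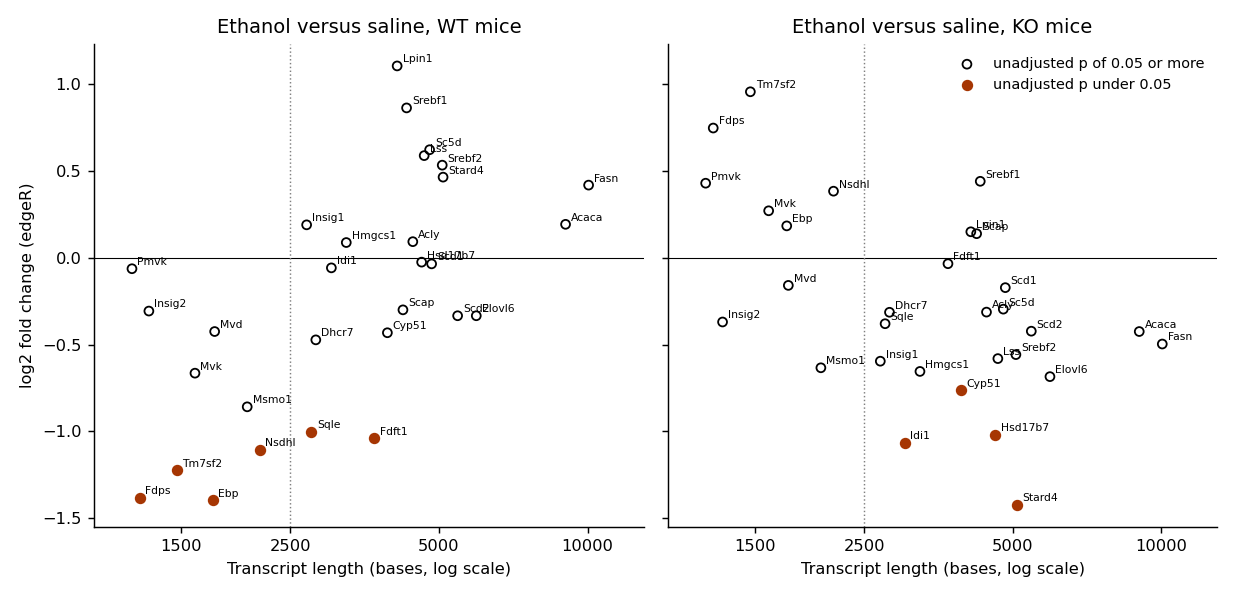
Fitted log2 fold change of ethanol versus saline (vertical axis) against transcript length (horizontal axis, log scale) for the 30 genes in WT mice and in KO mice; the dotted line marks 2500 bases. The 9 shortest transcripts are all below 0 in WT mice, and 6 of them are above 0 in KO mice.

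In KO mice, the same contrast showed which genes differed after ethanol when p53 was absent. Here 4 genes were lower and none higher at an unadjusted p under 0.05: Stard4, Idi1, Hsd17b7 and Cyp51. Over all genes 3.15% passed, 2.01% on the lower and 1.15% on the higher side. DESeq2 had 6 genes at that level, these 4 and Hmgcs1 lower and Tm7sf2 higher, where 3.96% of all genes passed. The median log2 fold change was -0.34 over the 30 genes and 0.008 over all genes, and 21 of the 30 were below 0. For 10 genes every ethanol library was below every saline library, while 6.87% of all genes separated on that side: Hmgcs1, Idi1, Lss, Hsd17b7, Insig1, Acly, Acaca, Fasn, Elovl6 and Stard4. None separated on the higher side, where 3.89% of all genes did. On the deposited RPKM, a scale examined after the data were seen, 13 genes separated on the lower side (6.45% of all genes), 9 of these 10 among them and Insig1 not. No gene passed an adjusted p of 0.05 (edgeR adjusted p = 0.999 at the lowest). All 10 genes separate in CPM have a transcript of 2500 bases or more, as do the 4 genes that passed in edgeR. In KO mice 18 of the 21 genes of that length were below 0 (median -0.424), against 3 of the 9 shorter ones (median 0.272). Spearman's rho between transcript length and log2 fold change was -0.493 over the 30 genes and -0.471 over 14677 genes with a known length. The part of length in these values was not tested.

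Stard4 moves cholesterol between membranes. Its levels were 23.2, 26.8 and 16.1 CPM in KO saline and 3.34, 9.47 and 9.45 CPM in KO ethanol libraries, the first of these from 2 counts. The WT libraries were at 7.20, 12.3 and 18.8 CPM under saline and 14.6, 19.3 and 20.3 CPM after ethanol. All 3 KO ethanol libraries were below all 3 KO saline libraries, whereas the WT groups overlapped. The KO log2 fold change of -1.42 ± 0.45 (edgeR adjusted p = 0.999) was -1.22 without the library labelled KO ethanol replicate 1, again at an unadjusted p under 0.05. It kept an unadjusted p under 0.05 in all 11 alternatives that could be run and in all 12 fits that left out 1 library.

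Idi1, isopentenyl diphosphate isomerase, stood at 125, 166 and 102 CPM in KO saline and at 45.1, 76.7 and 63.6 CPM in KO ethanol libraries. In WT libraries it was 64.8, 186 and 105 CPM under saline and 89.5, 95.6 and 158 CPM after ethanol. The KO groups were separate and the WT groups overlapped. The KO log2 fold change of -1.06 ± 0.42 (edgeR adjusted p = 0.999) became -0.90 without the library labelled KO ethanol replicate 1 and then missed an unadjusted p of 0.05.

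Hsd17b7 was measured at 28.1, 27.8 and 24.7 CPM in KO saline and at 5.01, 15.4 and 16.1 CPM in KO ethanol libraries, the first from 3 counts. In WT mice it was 17.5, 22.4 and 30.2 CPM under saline and 29.7, 20.4 and 19.3 CPM after ethanol. Again only the KO groups were separate. The log2 fold change was -1.02 ± 0.40 (edgeR adjusted p = 0.999), and it was -0.77 and no longer at an unadjusted p under 0.05 without the library labelled KO ethanol replicate 1. Cyp51 had a log2 fold change of -0.76 ± 0.35 in KO mice (edgeR adjusted p = 0.999) and of -0.99 without that library, both at an unadjusted p under 0.05.

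Hmgcs1, whose promoter is printed above, stood at 841, 1047 and 736 CPM in KO saline and at 550.0, 545 and 573 CPM in KO ethanol libraries. WT levels were 692, 819.8 and 700.3 CPM under saline and 677, 785 and 891 CPM after ethanol. The KO ethanol libraries were below all 9 others on this scale. On the deposited RPKM they were at 106, 175 and 181, below KO saline (226 to 292) and WT ethanol (213 to 237) but overlapping WT saline (115 to 172). The log2 fold change of -0.65 ± 0.36 did not pass (edgeR adjusted p = 0.999).

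Fatty acid genes made up 4 of the 10 separate ones. Acly, which supplies cytosolic acetyl-CoA, ran from 185 to 203 CPM in KO saline and from 140.4 to 168 CPM in KO ethanol libraries. Acaca, acetyl-CoA carboxylase, ran from 127 to 158 and from 103 to 117 CPM, and Fasn, fatty acid synthase, from 268 to 386 and from 201 to 236 CPM. Elovl6, an elongase, ran from 55.2 to 85.1 and from 33.4 to 48.8 CPM. None of these 4 passed at an unadjusted p of 0.05. Lpin1 overlapped between the same groups, from 9.14 to 18.3 and from 5.01 to 18.7 CPM.

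**Figure D4:**
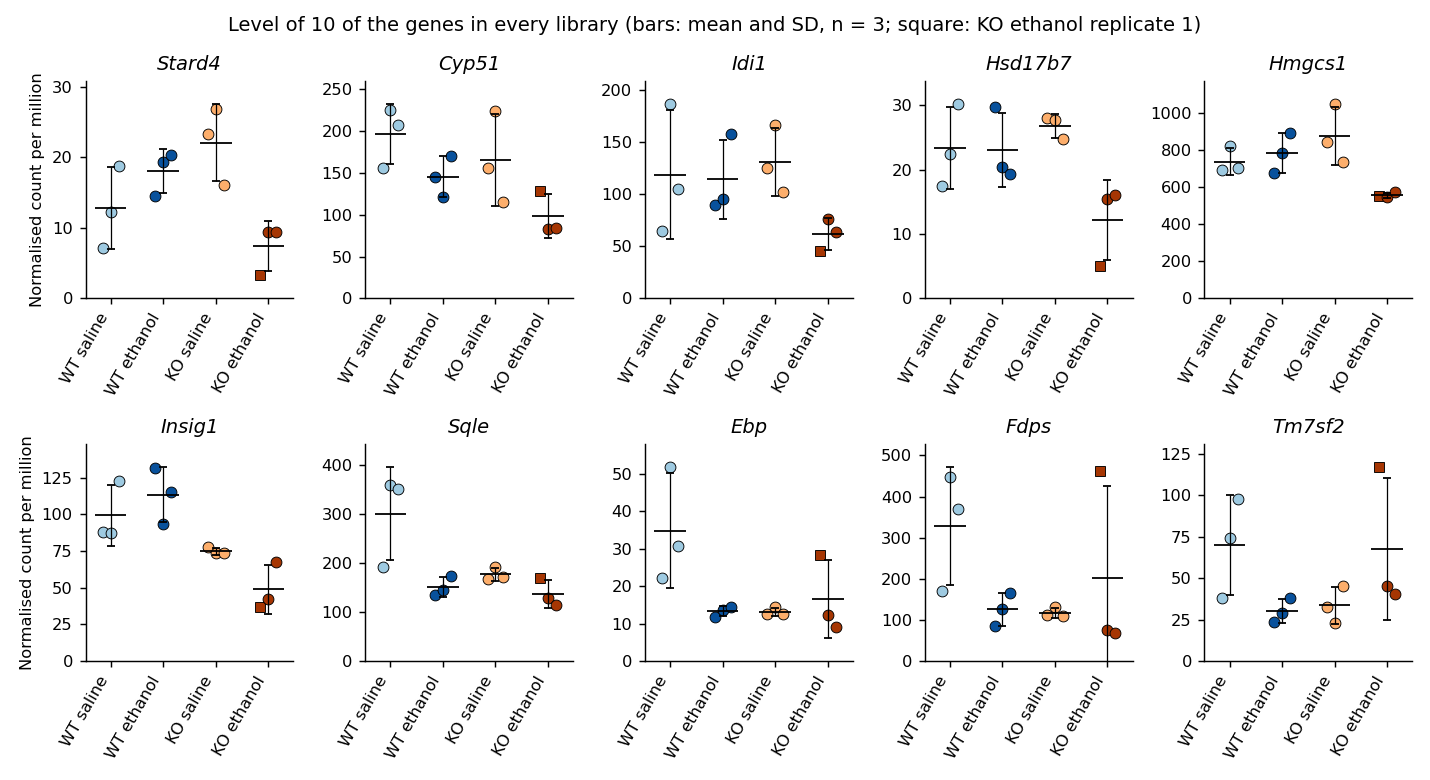
Normalised level in CPM (vertical axes, from 0) of 10 genes in each library of the 4 groups; lines and bars are the mean and SD (n = 3), bars are cut at 0, and the square is the library labelled KO ethanol replicate 1. The KO ethanol libraries of Hmgcs1 lie between 545 and 573 CPM, and that library is the highest of its group for Cyp51, Sqle, Ebp, Fdps and Tm7sf2 and the lowest for Stard4, Idi1, Hsd17b7 and Insig1.

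The library labelled KO ethanol replicate 1 stood apart from the other 2 of its group for several sterol enzymes. Fdps was at 461 CPM in it and at 76.5 and 67.0 CPM in the other 2, with 112, 132 and 109 CPM in KO saline. Tm7sf2 was at 117 CPM in it and at 45.2 and 40.4 CPM in the others, with 32.4, 23.2 and 45.3 CPM in KO saline. Ebp was at 28.4 against 12.2 and 9.01 CPM, Nsdhl at 124 against 50.2 and 41.0 CPM, and Fdft1 at 318 against 118 and 107 CPM. In KO saline these 3 genes were at 12.5, 14.4 and 12.5 CPM, at 41.1, 66.5 and 51.8 CPM, and at 150.4, 237 and 161 CPM. Transcripts under 2500 bases took 61.5% of the counts in that library and 39.3 to 39.9% in the other 2.

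Without it, 25 of the 30 genes were below 0 in KO mice and the median was -0.44 against -0.008 over all genes. The genes at an unadjusted p under 0.05 were then Stard4, Cyp51 and Scd1, all lower, where 1.18% of all genes passed on the lower side. Leaving out WT saline replicate 1 too gave 7 genes, all lower, adding Fdps, Msmo1, Idi1 and Hsd17b7 to those 3. Among all genes 4.03% passed, 2.92% on the lower side. With all libraries but length and GC trends removed, only Stard4 had an unadjusted p under 0.05 (log2 fold change -0.95). Among all genes 1.35% passed in that fit, 0.450% on the lower side, and the median was -0.071 against 0.14 over all genes. On the deposited RPKM (log2 of RPKM + 1), limma put 8 genes at an unadjusted p under 0.05, all lower, where 3.90% of all genes passed, 2.35% on the lower side. They were Stard4, Idi1, Hsd17b7 and Cyp51 with Hmgcs1, Insig1, Msmo1 and Sqle, and none passed an adjusted p of 0.05.

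**Figure D5:**
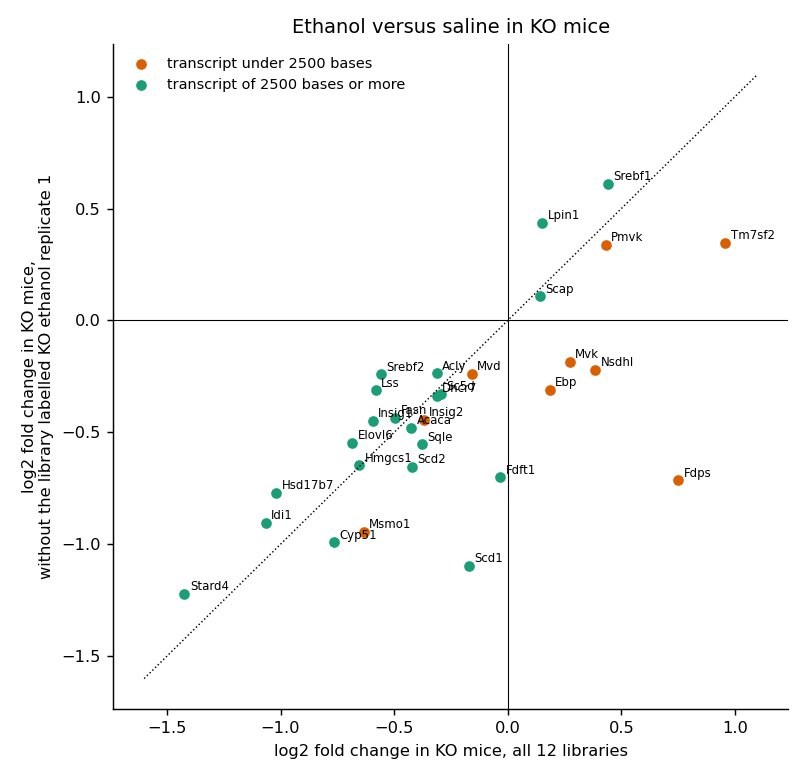
Fitted log2 fold change of ethanol versus saline in KO mice without the library labelled KO ethanol replicate 1 (vertical axis) against that with all 12 libraries (horizontal axis); the dotted line marks equal values. Fdps, Nsdhl, Ebp and Mvk move from above to below 0, and Stard4, Idi1, Hsd17b7 and Cyp51 stay below -0.7 in both.

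Among the regulators, INSIG1 retains SCAP in the endoplasmic reticulum and its own gene is an SREBP target. Insig1 was at 87.9, 87.1 and 123 CPM in WT saline and at 131, 93.8 and 115 CPM in WT ethanol libraries. In KO mice it was at 77.6, 73.4 and 73.8 CPM under saline and at 36.8, 42.2 and 67.7 CPM after ethanol. On this scale every KO library was below every WT library, and every KO ethanol library was below every KO saline library. On the deposited RPKM both separations were lost. The ethanol difference in KO mice did not pass (log2 fold change -0.59 ± 0.33, edgeR adjusted p = 0.999).

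Its relative Insig2 showed no such order, at 21.1, 52.9 and 28.7 CPM in WT saline and 24.1, 37.4 and 22.1 CPM in WT ethanol libraries. The KO values were 27.985, 38.0 and 25.4 CPM under saline and 26.7, 25.3 and 19.7 CPM after ethanol, and all 4 groups overlapped. Per length, Insig1 had a mean of 28.3 and Insig2 of 10.5 RPKM over the 12 libraries.

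Srebf2 encodes the SREBP that mainly drives sterol genes. It stood at 92.0, 24.4 and 137 CPM in WT saline, at 162, 101 and 105 CPM in WT ethanol, at 164, 94.3 and 133 CPM in KO saline and at 40.1, 118 and 103 CPM in KO ethanol libraries. Groups overlapped in both genotypes. Srebf1, which mainly drives fatty acid genes, was at 20.6, 5.88 and 28.9 CPM in WT saline, 65.8, 18.4 and 16.5 CPM in WT ethanol, 24.6, 11.1 and 19.8 CPM in KO saline and 16.7, 20.8 and 35.5 CPM in KO ethanol libraries. Its highest value, in WT ethanol replicate 1, was in the library with the highest choroid plexus and thalamus marker sums. KO saline replicate 1 and KO ethanol replicate 3, also with choroid plexus markers, were at 24.6 and 35.5 CPM. A link to these markers was not tested. Neither gene nor Scap, which ranged from 34.2 to 105 CPM over all libraries, passed at an unadjusted p of 0.05 in any of the 7 contrasts. Per length, Srebf2 had a mean of 21.6 and Srebf1 of 4.95 RPKM.

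The desaturases Scd1 and Scd2 put the double bond into stearate. Scd2 was at 897, 1064 and 2008 CPM in WT saline, 1459, 694 and 999 CPM in WT ethanol, 1132, 1037 and 693 CPM in KO saline and 924, 609 and 605 CPM in KO ethanol libraries. Groups overlapped, and the Treatment effect of -0.38 ± 0.33 did not pass (edgeR adjusted p = 0.785). Scd1 was at 58.6, 78.1 and 97.0 CPM in WT saline, 102, 33.6 and 92.5 CPM in WT ethanol, 69.0, 82.8 and 44.0 CPM in KO saline and 122, 31.03 and 30.1 CPM in KO ethanol libraries. The first KO ethanol value is the library labelled KO ethanol replicate 1, without which Scd1 had a log2 fold change of -1.10 in KO mice, at an unadjusted p under 0.05. Their coding sequences are similar, so reads shared between the 2 genes may have been split by the authors' counting.

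KO and WT mice were compared under saline for differences that did not need ethanol. At an unadjusted p under 0.05, 6 genes were lower in KO mice and none higher, namely Mvk, Fdps, Sqle, Tm7sf2, Nsdhl and Ebp, where 19.6% of all genes passed, 10.5% on the lower and 9.14% on the higher side. With Fdft1, 7 met an adjusted p of 0.30, as did 25.8% of all genes. None passed an adjusted p of 0.05 by edgeR, where 0.0543% of all genes did, and the lowest was that of Ebp (log2 fold change -1.41 ± 0.44, edgeR adjusted p = 0.176). Separate on the lower side were 6 genes (10.0% of all genes), Mvk, Fdps, Fdft1, Nsdhl, Ebp and Insig1, and on the higher side none (12.9%). In DESeq2 Ebp alone passed an adjusted p of 0.05, as did 4.86% of all genes. This contrast shares the WT saline libraries with the WT ethanol contrast, and 5 of the 6 genes were lower in both. For the 30 genes the median was -0.19 against 0.041 over all genes, but 0.29 (0.49 over all genes) without library scaling factors and 0.061, 0.065 or -0.003 on the deposited RPKM. Without those factors 4 genes had an unadjusted p under 0.05 (20.3% of all genes), Ebp lower and Hmgcs1, Sc5d and Stard4 higher. With TMM factors, 5 of the 9 genes under 2500 bases passed (median -0.925), and 1 of the 21 longer ones (median 0.139). Spearman's rho between transcript length and log2 fold change was 0.64 over the 30 genes and 0.538 over 14677 genes. After length and GC trends were removed, Ebp, Nsdhl and Sqle remained lower and Fdps, Mvk and Tm7sf2 were lost. Fdft1, Scap and Scd2 were added, where 9.48% of all genes passed on the lower side. Length was not tested as a cause.

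After ethanol, KO mice had lower Insig1 and Stard4 and higher Tm7sf2 than WT mice at an unadjusted p under 0.05, where 3.24% of all genes passed, 2.26% lower and 0.977% higher. For Insig1 the log2 fold change was -1.19 ± 0.33 (edgeR adjusted p = 0.982), with an unadjusted p under 0.05 in all 12 alternatives and in all 12 fits that left out 1 library. For Stard4 it was -1.13 ± 0.45 (edgeR adjusted p = 0.982), and for Tm7sf2 1.11 ± 0.48 (edgeR adjusted p = 0.982). Without the library labelled KO ethanol replicate 1, Insig1 remained at an unadjusted p under 0.05, with -1.04, whereas Stard4 (-0.93) and Tm7sf2 (0.50) did not. Cyp51 and Scd1 were then lower at an unadjusted p under 0.05, where 1.58% of all genes passed on the lower side. For 7 genes the KO ethanol libraries were below all WT ethanol libraries, as for 8.69% of all genes: Hmgcs1, Idi1, Lss, Hsd17b7, Sc5d, Insig1 and Stard4. Tm7sf2 alone separated on the higher side, as did 4.04% of all genes.

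For the main effect of Genotype, Insig1 was the 1 gene of 30 at an unadjusted p under 0.05, and 7.67% of all genes passed, 3.67% lower and 4.00% higher. Its effect was -0.80 ± 0.23 (edgeR adjusted p = 0.623), with all 6 KO libraries below all 6 WT libraries, a separation seen on the lower side in 0.0611% of all genes. On the deposited RPKM the genotypes overlapped, with Insig1 at 22.7 to 54.0 RPKM in WT and 12.2 to 28.8 RPKM in KO libraries. Without the library labelled KO ethanol replicate 1, 10 genes were lower in KO mice, where 9.04% of all genes passed on that side. Insig1 was among them.

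Whether the ethanol effect differed between genotypes was tested as an interaction. It had an unadjusted p under 0.05 for 6 of the 30 genes, where 15.2% of all genes passed. The ethanol effect in KO mice was above that in WT mice for Fdps, Tm7sf2, Nsdhl and Ebp (7.50% of all genes on that side) and below it for Lss and Stard4 (7.67%). None passed an adjusted p of 0.05 by edgeR, and 5 of the 6, all but Lss, met 0.30 (11.1% of all genes). Without the library labelled KO ethanol replicate 1, only Tm7sf2 and Stard4 kept an unadjusted p under 0.05 for the interaction. Of all genes 9.87% passed in that fit. Ethanol in WT mice again had Fdps, Fdft1, Sqle, Tm7sf2, Nsdhl and Ebp lower when that library was left out of the common fit. There 22.3% of all genes passed, 10.4% on the lower side.

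Genes around the pathway were counted in 4 related lists at the same unadjusted p under 0.05. For ethanol in WT mice, where 18.3% of all genes passed, 1 of 10 genes of cholesterol efflux, esterification and liver X receptor signalling passed (Abcg1, a sterol exporter, higher) and 0 of 6 genes of SREBP processing. In the same contrast 2 of 9 genes of a list of the isoprenoid branch with Acat2 passed (Pggt1b higher, Acat2 lower). Acat2 acts upstream of Hmgcs1 and not on that branch. Of 21 further fatty acid genes 4 passed (Acsl3 and Gpam higher, Hacd1 and Tecr lower). For KO versus WT mice under saline, where 19.6% of all genes passed, 3 of the 21 fatty acid genes did (Gpam higher, Hacd1 and Tecr lower) and 1 of the 6 SREBP processing genes (Rnf139, lower). After ethanol, Abca1 of the efflux list was lower in KO mice (3.24% of all genes passed). For Genotype, Mylip of that list was higher and Rnf139 lower (7.67% of all genes passed). For ethanol in KO mice and for Treatment, 0 genes of these 4 lists passed in edgeR, where 3.15% and 7.09% of all genes did.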

How the data were processed

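RNA-Seq reads from 12 libraries had been quality filtered, aligned to mm10 with Bowtie2 within TopHat and quantified on RefSeq transcripts in Partek Flow by the authors. The deposited estimated counts, one per transcript, are unscaled and include fractions. The deposited RPKM were computed by the authors, and 99.7% of 20504 ranks above 0 coincided within 0.1% across libraries, so these values are quantile normalised. File end coordinates were reduced by 1 base to be inclusive.

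Counts were summed per symbol and rounded. Genes were kept by filterByExpr of edgeR 4.0.16 (R 4.3.3), scaled by TMM and tested by quasi-likelihood, each group having its own mean. The 7 contrasts were tested at unadjusted p under 0.05 and adjusted p (Benjamini-Hochberg over 14739 genes) under 0.05 and 0.30. CPM are TMM normalised. Groups and replicates follow the labels, with replicates numbered in accession order. Alternatives were DESeq2 1.42.0, limma 3.58.1 on log2(RPKM + 1) and log2(RPKM + 0.1), a 2-way linear model on RPKM, other filters, scaling and covariates, removal of length and GC trends by a spline with 5 degrees of freedom, and left-out libraries. The fits were checked on simulated data. The genes and lists were chosen with earlier results of these data known. Library values are given for the 10 genes with the smallest edgeR p for Treatment or for ethanol in either genotype, the gene with the highest RPKM of each role and 3 pairs of relatives.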

Additional observations from a re-analysis of the deposited data

Results flagged for a closer look

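The Genotype x Treatment interaction, the log2 ethanol effect of KO mice less that of WT mice, had an unadjusted p under 0.05 in edgeR for 6 of the 30 genes, where 15.2% of all genes passed. Positive differences were 2.18 for Tm7sf2, 2.13 for Fdps, 1.58 for Ebp and 1.49 for Nsdhl. Negative ones were -1.89 for Stard4 and -1.17 for Lss. None passed an adjusted p of 0.05 in edgeR, DESeq2 or limma, and the lowest edgeR adjusted p was 0.25. Without the library labelled KO ethanol replicate 1, the differences of Tm7sf2 (1.57) and Stard4 (-1.68) kept an unadjusted p under 0.05, and those of Fdps (0.67), Ebp (1.09), Nsdhl (0.89) and Lss (-0.91) did not. After removal of length and GC trends, Ebp, Nsdhl and Tm7sf2 kept it, and Fdft1 and Scap were added. Over the 30 genes, Spearman's rho between the difference and transcript length was -0.674, beside -0.601 over all genes with a known length. Neither depth, transcript length nor blood was tested as a cause.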

How the results depend on the processing

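Counts below are genes of 30 at an unadjusted p under 0.05, each followed by the share of all genes that passed in the same fit. Without TMM factors they were 1 for Treatment (8.33%), 2 for ethanol in WT mice (20.3%) and 0 for Genotype (7.54%). These 2 were Ebp, lower, and Sc5d, higher. A minimum of 10 counts in every library left 27 genes, of which 2 passed for ethanol in KO mice (4.04%) and 2 for Genotype (6.61%). On log2(RPKM + 1) and log2(RPKM + 0.1) limma gave 3 and 3 for ethanol in WT mice (11.7 and 11.1%), 8 and 8 for ethanol in KO mice (3.90 and 3.75%), and 6 and 6 for KO versus WT mice after ethanol (4.75 and 4.63%), and on the first of these scales 3 for KO versus WT mice under saline (12.2%). For ethanol in WT mice both limma fits had Ebp lower and Hmgcs1 and Sc5d higher. On log2(RPKM + 1), KO versus WT mice under saline had Ebp and Nsdhl lower and Hmgcs1 higher. The 2-way linear model on RPKM gave 7 for ethanol in KO mice (3.70%) and 6 for KO versus WT mice after ethanol (4.14%). The first letter of the library name as a covariate gave 2 for ethanol in KO mice (1.55%) and 3 for the interaction (10.3%). Without the 2 libraries named with L (WT saline replicate 1 and the library labelled KO ethanol replicate 1) the counts were 14 for Treatment (30.6%), 7 for ethanol in KO mice (4.03%), 12 for KO versus WT mice under saline (39.2%), 5 after ethanol (6.35%), 12 for Genotype (34.2%) and 10 for the interaction (21.4%). Removal of length and GC trends left 1 for ethanol in KO mice (1.35%). The Treatment median was -0.057 without TMM factors, -0.13 in the 2-way linear model and -0.47 without the 2 libraries. Leaving out each library in turn gave 1 to 8 for Treatment, 2 to 9 for ethanol in WT mice, 1 to 6 in KO mice, 1 to 12 for KO versus WT mice under saline, 1 to 4 after ethanol, 1 to 10 for Genotype, 2 to 9 for the interaction, and a Treatment median of -0.39 to -0.19. Without WT saline replicate 1, 3 genes for ethanol in WT mice (Ebp, Sqle and Lpin1; 7.68% of all genes) and 4 for KO versus WT mice under saline (those and Nsdhl; 14.5%) passed an adjusted p of 0.05 in edgeR. The causes of these changes were not tested. No paired analysis was possible because the groups share no replicate number in the labels. Effects at an unadjusted p under 0.05 with all libraries kept their direction in the alternatives and left-out fits run. Of the remaining effects, several changed sign: ethanol in KO mice did so without the library labelled KO ethanol replicate 1 for Fdps (0.75 to -0.71), Ebp, Nsdhl and Mvk, and after removal of length and GC trends for, among others, Acaca (-0.42 to 0.18) and Scd1 (-0.17 to 0.62). Depth limits Stard4, Hsd17b7 and Lpin1, which had 2 or 3 counts in 1 library.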
